A study of Arabidopsis thaliana with 4 samples.

Results

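The genes described here are 8 members of the ZIP family of Arabidopsis thaliana, namely ZIP1, ZIP2, ZIP3, ZIP4, ZIP5, ZIP6, ZIP9 and ZIP11, out of 20341 genes with a probe set of their own on the arrays. They were chosen by gene code, with the signals on the same 4 arrays already known, so their values are given as a description without a test. Each of the 8 codes was found on exactly 1 probe set, and none of these probe sets named a second gene. ZIP stands for ZRT, IRT-like protein, after the zinc transporters of yeast and the iron transporter IRT1 of Arabidopsis.

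ZIP proteins sit in cell membranes and carry zinc, iron, manganese or copper towards the cytosol, either from the soil solution and the cell wall or out of an organelle. In Arabidopsis roots several ZIP genes respond to zinc shortage through the transcription factors bZIP19 and bZIP23, which bind a zinc deficiency response element in their promoters. Zinc that has entered the root is chelated by nicotianamine, stored in vacuoles or pumped into the xylem, so that uptake genes, chelators and exporters work as 1 system.

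Total RNA of roots came from 4-week-old hydroponic plants of 2 genotypes, wild type and the single mutant line wrky47-1 (called wrky47 here), mutated in WRKY47, which encodes a transcription factor. Both genotypes were kept for 6 h in 0.5 mM CaCl2, either without aluminium (control) or with 25 µM AlCl3 (Al), and each of the 4 groups holds 1 array. How many plants went into each RNA, and in which root cells a difference arose, is not stated in the labels. With n = 1 per group there is no spread between replicates and no p-value, and every difference below is one between single arrays.

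A gene was taken as detected on an array where its signal lay above a floor set at the 40th percentile of that array, a value of 81.1 on the wild-type control, 75 on the wild-type Al, 79.1 on the wrky47 control and 75.1 on the wrky47 Al array. The targeted gene WRKY47 read 173 without and 203 with Al in wild type, and 27.5 and 24.1, both below the floor, in wrky47. Of 10 root markers 9 were above the floor on at least 1 array and 7 on all 4, and GL2, a regulator of hairless epidermal cells, was below it on all 4. Of 7 green tissue markers with a probe set of their own, 5 were below the floor on every array, as were all 5 markers of flower and seed. The summed signal of the root markers was 7516 in wild-type control, 3602 in wild-type Al, 5121 in wrky47 control and 2957 in wrky47 Al. The brightest probe sets weigh most in this sum. In wild type CASP1 read 2649 without and 250 with Al, and PIN2 460 and 447. The part of the summed signal in the differences below was not tested. With Al, 4 of 9 detected root markers were lower by 2-fold in wild type (CASP1, SKOR, WOL and, as a bound, EXPA7), beside 2.66% of all genes. In wrky47 1 of 9 was lower with Al (CASP1), beside 2.14%. In control solution 2 of 9 were lower in wrky47 than in wild type (SKOR and CASP1), beside 0.229%. The Dap control probe sets, which detect a spiked-in RNA, averaged 7.70 (log2) in wild-type control and 8.23 to 8.27 on the other 3 arrays, and the part of this too was not tested. In RNA of whole roots, fewer cells of a type and less RNA per cell cannot be told apart.

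The probe sets of the 8 genes lie on all 5 nuclear chromosomes, 3 of them on chromosome 1. ZIP5 (AT1G05300) is at chr1:1545257-1547709, ZIP4 (AT1G10970) at chr1:3665200-3666526 and ZIP11 (AT1G55910) at chr1:20906160-20907225. ZIP6 (AT2G30080) is at chr2:12838729-12840112, ZIP3 (AT2G32270) at chr2:13704277-13706612, ZIP1 (AT3G12750) at chr3:4051949-4053156, ZIP9 (AT4G33020) at chr4:15932602-15934267 and ZIP2 (AT5G59520) at chr5:23991446-23992762. These positions are the alignments in the authors' table, for which no genome build is named in the labels or the table. ZIP3 and ZIP11 are on the plus strand and the other 6 on the minus strand.

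The ontology terms in the authors' table assign zinc ion transport to all 8, as to 24 of the 20341 genes. Plasma membrane is listed for 7 of them, all but ZIP4, while chloroplast is listed for ZIP4, ZIP6 and ZIP9. A response to zinc ion is listed for ZIP1 and ZIP9. The gene titles name copper transport for ZIP2 and ZIP4.

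ZIP2 varied most among the members detected on all 4 arrays. ZIP2 is a plasma membrane transporter that restores zinc uptake to yeast mutants and is active in the root stele. Its signal was 625 in wild-type control, 406 in wild-type Al, 1179 in wrky47 control and 225 in wrky47 Al. The highest and the lowest of these signals are both from wrky47, so that the mutant stood above wild type without Al and below it with Al. Between these extremes the range was 2.39 on the log2 scale, or 5.25-fold.

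ZIP9 is a zinc deficiency-induced member and a target of bZIP19 and bZIP23. Its signal was 47.7 in wild-type control, 265 in wild-type Al, 62.9 in wrky47 control and 133 in wrky47 Al. It was below the floor on both control arrays and above it on both Al arrays, with the higher Al signal in wild type. ZIP9 was the only member not detected on all 4 arrays.

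ZIP3, a zinc transporter of the root that rises when zinc is scarce, read 744 on the wild-type control array, 1256 with Al, 698 on the wrky47 control array and 730.1 with Al. The wild-type Al array stood above the other 3, which lay within a narrow band.

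ZIP5 and ZIP4 are also known targets of bZIP19 and bZIP23. ZIP5 read 139 on the wild-type control array, 128 with Al, 156 on the wrky47 control array and 85.5 with Al. ZIP4 had signals of 146, 143, 161 and 114 in the same order. In both genes the wrky47 control array was the highest and the wrky47 Al array the lowest, and ZIP5 came close to the floor on the latter.

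ZIP1, a zinc and manganese transporter of the stele located in the vacuolar membrane, read 225 on the wild-type control array, 151 with Al, 206 on the wrky47 control array and 140.2 with Al. ZIP6 had signals of 271, 203, 246 and 179 in the same order. For both of these genes the control arrays were above the Al arrays in either genotype, and the genotypes were close together.

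ZIP11 varied least, with signals of 195 in wild-type control, 164.5 in wild-type Al, 188 in wrky47 control and 171 in wrky47 Al, a range of 0.25 on the log2 scale. Signals of different probe sets have no common scale, so the order of levels is given within each gene only.

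**Figure D1:**
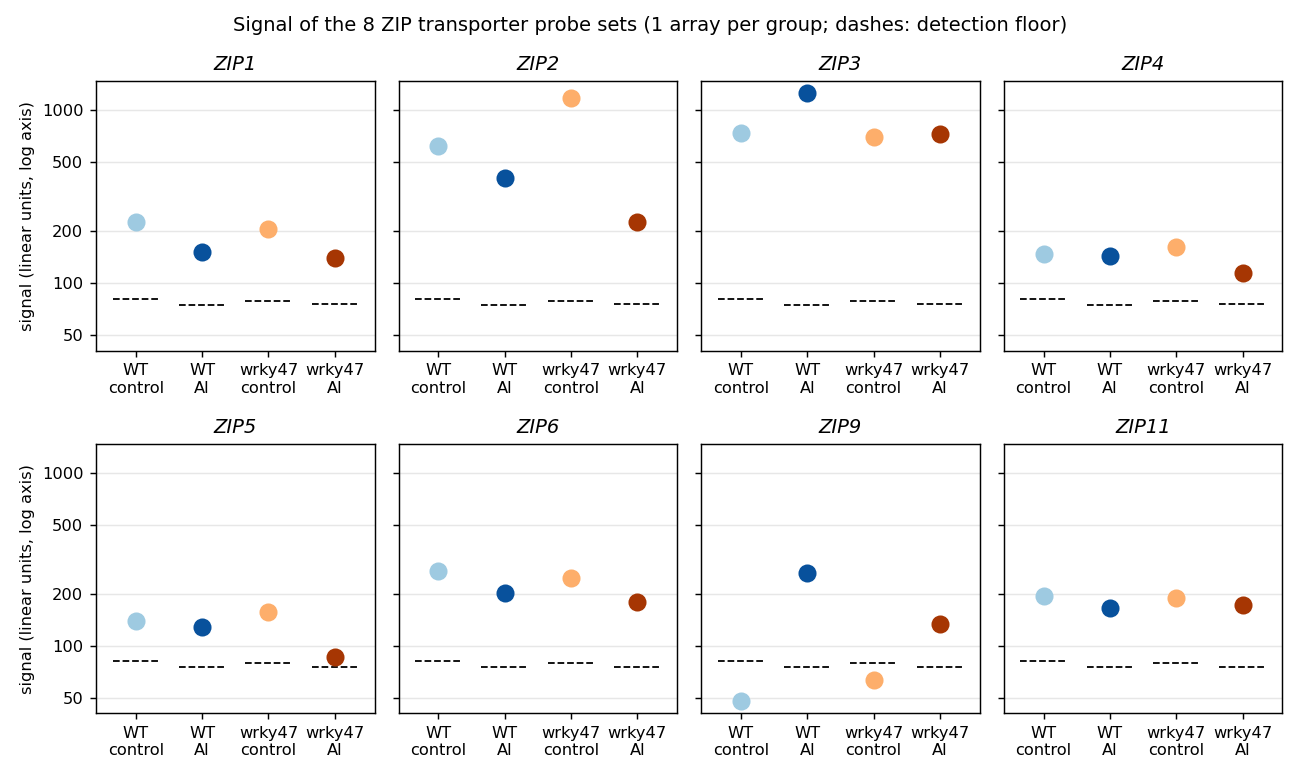
Signal of each ZIP probe set on the 4 arrays (linear units on a log axis, 1 point per array), with the detection floor of each array as a dashed line. ZIP2 runs from 225 in wrky47 Al to 1179 in wrky47 control, ZIP9 is below the floor on both control arrays, and ZIP11 stays between 164.5 and 195.

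The first comparison asked how the members differed after 6 h of Al in wild-type roots. ZIP9 was at least 3.26-fold higher in Al, a bound from its Al signal over the control floor. It was 1 of 8 members past 2-fold, where 6.04% of the 13251 genes detected on at least 1 of these arrays were past it in either direction and 3.37% were higher. No member was lower by 2-fold, where 2.66% of those genes were.

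Among the 7 members measured on both wild-type arrays, ZIP3 alone was above 0, with a log2 difference of 0.75 (1.69-fold higher). Of the 12434 genes measured in this comparison 35.9% were above 0, and 635 had a higher value than ZIP3. ZIP2 (-0.62) and ZIP1 (-0.57) were the lowest, followed by ZIP6 (-0.42) and ZIP11 (-0.25). ZIP5 (-0.12) and ZIP4 (-0.03) were near 0, and their sign depended on the scaling: after quantile normalization ZIP5 was at 0.02 and ZIP4 at 0.10. The median of the 7 was -0.25, beside -0.12 for all measured genes.

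Under Al in wrky47 the order was different. ZIP2 was 5.25-fold lower in Al than in control, a log2 difference of -2.39, and 17 of 12465 measured genes had a lower value. It was 1 of 8 members past 2-fold, beside 5.9% of 13228 genes in either direction, 3.76% higher and 2.14% lower. ZIP9 was at least 1.69-fold higher, a bound that stays under 2-fold.

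ZIP5 followed ZIP2 in wrky47 with a log2 difference of -0.87 (1.82-fold lower). ZIP1 stood at -0.55, ZIP4 at -0.50, ZIP6 at -0.46 and ZIP11 at -0.13. ZIP3, at 0.06, was the only one of the 7 measured members above 0, where 42.2% of all measured genes were. The median of the 7 was -0.50, beside -0.07 for all measured genes.

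**Figure D2:**
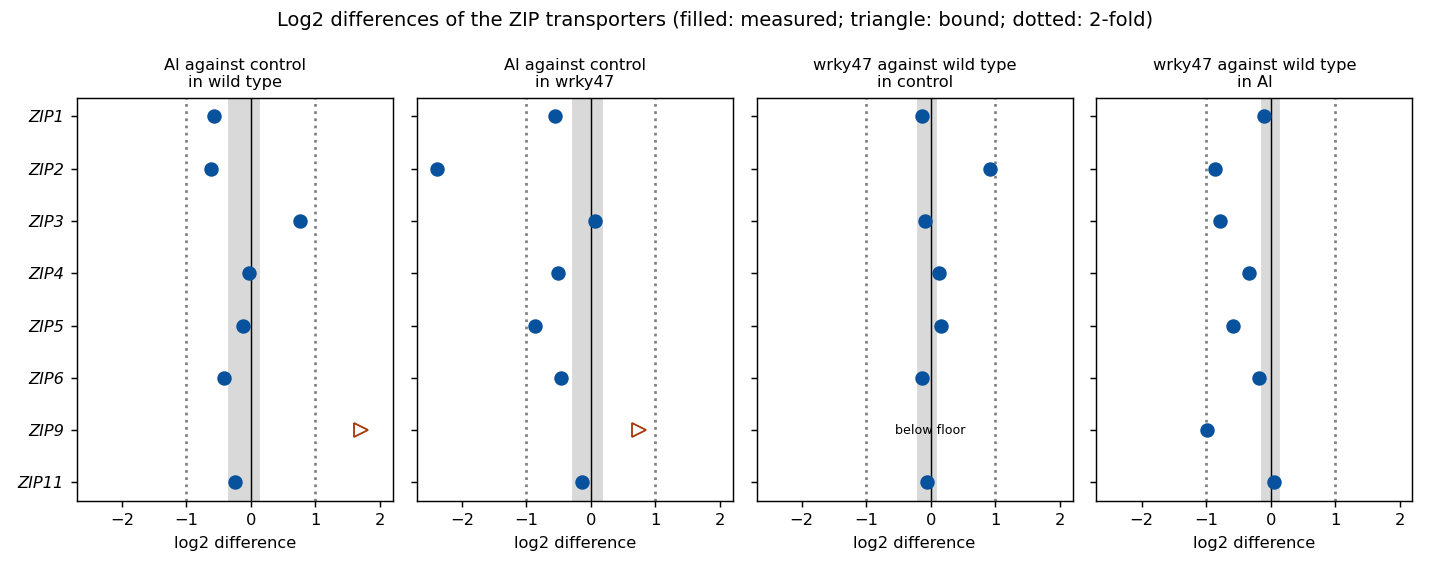
Log2 differences of the 8 ZIP genes in 4 comparisons between single arrays; filled points were measured on both arrays, open triangles are bounds, the grey band holds the middle 50% of all measured genes and dotted lines mark 2-fold. ZIP2 lies at -2.39 for Al against control in wrky47, and 7 of 8 members are below 0 for wrky47 against wild type in Al. In the latter comparison 50.7% of all measured genes are above 0.

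The genotypes were then set side by side without Al. No member differed by 2-fold, where 0.328% of 13100 genes did, 0.0992% higher and 0.229% lower. This split moved with the scaling, from 13 higher and 30 lower as deposited to 19 and 22 after quantile normalization. ZIP2 came nearest, 1.88-fold higher in wrky47 (log2 0.91), and 22 of 12602 measured genes had a higher value. The other 6 measured members lay between -0.14 for ZIP6 and 0.17 for ZIP5. ZIP9 was below the floor in both genotypes.

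The median of the 7 measured members in control was -0.06, beside -0.05 for all measured genes, while their mean was 0.11. ZIP11 is the member at the median, and its value turned to 0.00 with centred arrays and 0.01 with arrays scaled at their 75th percentile.

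With Al, 7 of the 8 members were lower in wrky47 than in wild type, and all 8 were measured. Of all measured genes 50.7% were above 0 in this comparison. ZIP9 was 1.99-fold lower (log2 -0.99), just short of 2-fold, and 15 of 12602 genes had a lower value. ZIP2 was 1.81-fold lower (-0.85), ZIP3 1.72-fold (-0.78) and ZIP5 1.5-fold (-0.58). ZIP4 (-0.33), ZIP6 (-0.18) and ZIP1 (-0.11) followed, and ZIP11 stood at 0.06.

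None of the 8 members passed 2-fold in Al as deposited, beside 0.375% of 13074 genes (0.245% higher, 0.13% lower). After quantile normalization ZIP9 passed it. The median of the members was -0.46, where that of all measured genes was 0.00. The members were chosen with these arrays known, and nothing particular to them is read from this median.

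**Figure D3:**
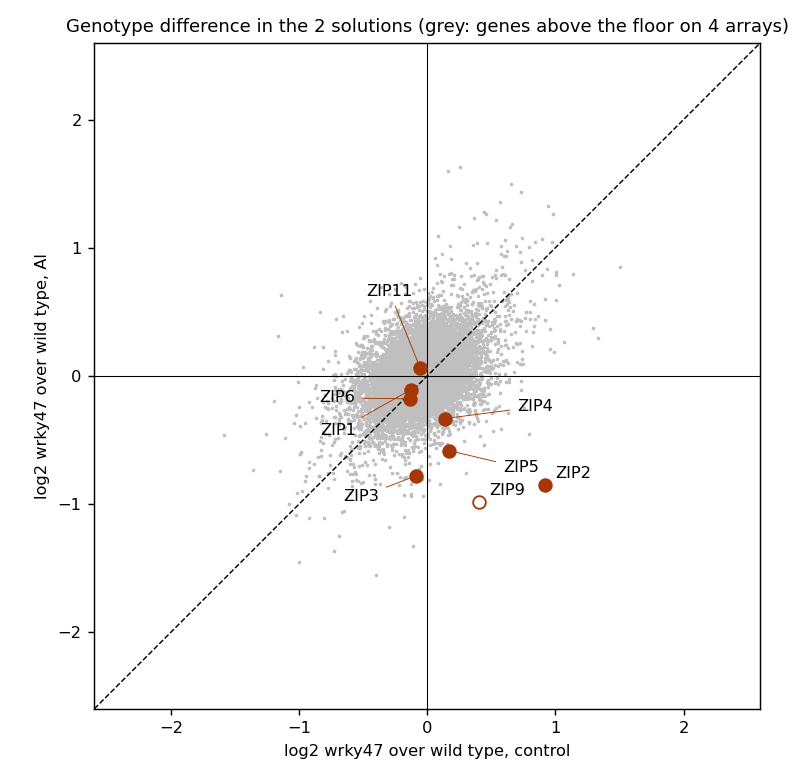
Log2 difference of wrky47 over wild type in control solution (horizontal) and in Al (vertical), with the ZIP genes in colour (open: ZIP9, below the floor on both control arrays), genes above the floor on all 4 arrays in grey and a dashed line of equality. ZIP2 lies at 0.91 and -0.85, in the lower right quadrant.

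The last comparison was of the Al differences themselves, as the log2 difference of wrky47 minus that of wild type. It uses all 4 arrays and so shares them with the comparisons above. The column names of the deposited table number the wild-type Al and wrky47 control arrays 1 and the other 2 arrays 2, without saying what the number marks. Each comparison of 2 arrays above also sets a number 1 against a number 2. Whatever it marks and the difference of the Al responses cannot be told apart. ZIP2 had a value of -1.77, that is, its signal ratio of Al to control was 3.41-fold smaller in wrky47. No other of the 12223 genes above the floor on all 4 arrays had a lower value. ZIP2 was 1 of 7 measured members past 2-fold, beside 0.188% of those genes, 0.131% above and 0.0573% below. Here 16 genes were above and 7 below as deposited, and 10 and 11 after quantile normalization.

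ZIP5 (-0.75), ZIP3 (-0.69) and ZIP4 (-0.47) were on the same side as ZIP2 by smaller amounts. ZIP9 was not measured on all 4 arrays. Without a floor its difference of responses was -1.39, from log2 differences of 2.47 in wild type and 1.08 in wrky47. ZIP6 (-0.04), ZIP1 (0.02) and ZIP11 (0.11) were near 0, and ZIP1 was below 0 under each of 3 other scalings (-0.07, -0.04 and -0.05). The median of the 7 measured members was -0.47, beside 0.05 for all genes in this comparison.

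**Figure D4:**
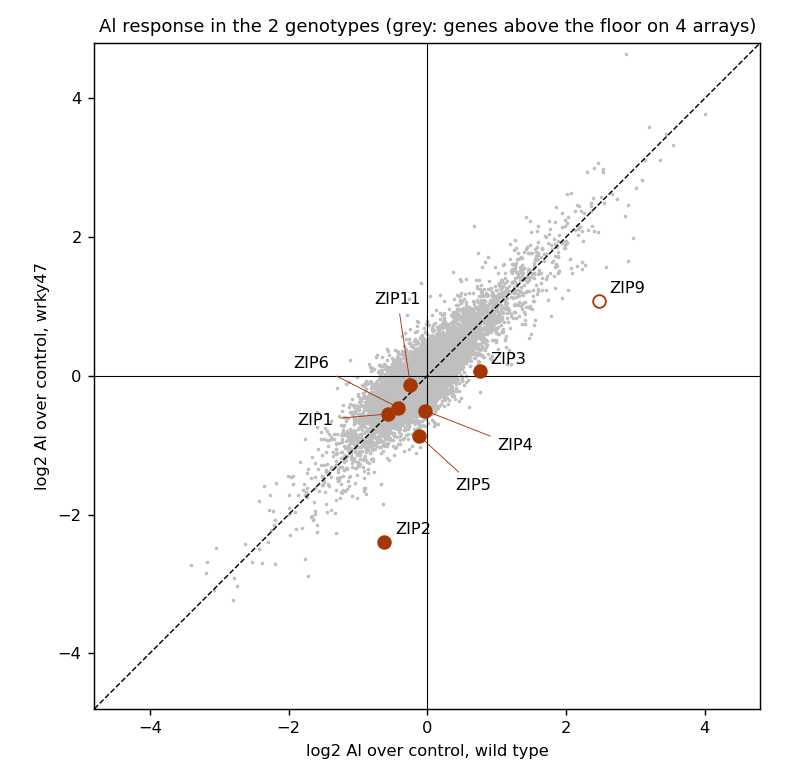
Log2 difference of Al over control in wild type (horizontal) and in wrky47 (vertical), with the ZIP genes in colour (open: ZIP9, below the floor on both control arrays), genes above the floor on all 4 arrays in grey and a dashed line of equality. ZIP2 lies at -0.62 and -2.39, far below the line, while ZIP1, ZIP6 and ZIP11 lie close to it.

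The profiles of the members over the 4 arrays were compared by the Euclidean distance of their log2 signals, each taken relative to its own mean. ZIP1 and ZIP6 were the closest members, at a distance of 0.13. ZIP4 was next to ZIP6 (0.28) and to ZIP5 (0.29). ZIP2 and ZIP9 were the farthest apart (3.31), with 2 arrays of ZIP9 below the floor, and the nearest member to ZIP9 was ZIP3 (1.42).

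Only ZIP2 was above the floor on all 4 arrays with a log2 range of at least 1, and its profile was set against 5912 other genes with a symbol. The nearest was the ammonium transporter gene AMT1;2, at a distance of 0.58, with signals of 1878 in wild-type control, 1009 in wild-type Al, 2453 in wrky47 control and 802 in wrky47 Al. Next were HAK5, a high-affinity potassium transporter gene (0.67), and GLTP3 (0.68). In none of these 3 genes was the genotype difference as large as in ZIP2: AMT1;2 was at 0.39 in control and -0.33 in Al, HAK5 at 0.12 and -0.35, and GLTP3 at 0.02 and -0.69.

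The rest of the ZIP family was taken from a list of 9 genes, of which 8 had a probe set of their own. ZIP7, ZIP10, ZIP12 and IRT2 were below the floor on every array. IRT3, a zinc and iron transporter that is also a target of bZIP19 and bZIP23, read 889 on the wild-type control array, 1361 with Al, 828 on the wrky47 control array and 1000.4 with Al. As in ZIP3, the wild-type Al array of IRT3 was the highest, with a log2 difference of Al over control of 0.61 in wild type and 0.27 in wrky47. IRT3 stood at -0.44 in wrky47 relative to wild type in Al.

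IRT1, the main iron importer of the root epidermis, read 399.9 on the wild-type control array, 52.5 with Al, 79.3 on the wrky47 control array and 37.7 with Al. Both Al arrays were below the floor and the wrky47 control array just above it. In wild type IRT1 was at least 5.33-fold lower in Al. In control solution it was 5.04-fold lower in wrky47, whereas ZIP2 was higher there. In each of these comparisons IRT1 was the 1 of 4 detected other family genes lower by 2-fold. The share of all genes lower by 2-fold was 2.66% for Al in wild type and 0.229% for the genotypes in control. IAR1 and ZTP29, which are family members of the endoplasmic reticulum, differed little between genotypes, with IAR1 at 0.01 in control and 0.09 in Al and ZTP29 at -0.11 and 0.01. ZTP29 was at -0.53 with Al in wild type and -0.41 in wrky47, and IAR1 at -0.13 and -0.05. The medians of the measured other family members were -0.13 for Al in wild type and -0.05 for Al in wrky47.

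Zinc regulators, chelators and exporters formed a list of 17 genes, 14 with a probe set of their own. In wild-type Al 3 of 12 detected genes were lower by 2-fold and none higher, where 2.66% of all genes were lower. They were NAS1 (-2.63) and NAS2 (-1.39), which make the chelator nicotianamine, and FRD3 (-1.16), a citrate exporter of the stele. In wrky47 2 of 12 were lower, NAS1 (-2.43) and FRD3 (-1.63), where 2.14% of all genes were. The list medians were -0.43 in both genotypes.

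bZIP19, the regulator of zinc uptake genes, read 690 on the wild-type control array, 431 with Al, 575 on the wrky47 control array and 408 with Al, and so stood at -0.68 with Al in wild type and at -0.49 in wrky47. HMA4, a zinc pump that loads the xylem, was at -0.21 and -0.14. MTP3, which moves zinc into vacuoles, was at 0.24 in wild type and 0.90 in wrky47, and HMA3, a vacuolar pump, at -0.40 and -0.93.

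Between genotypes none of 12 detected genes of the zinc list passed 2-fold in control, beside 0.328% of all genes. In Al none of 10 did, beside 0.375%. HMA3 (0.63) and FRD3 (0.59) were the highest in wrky47 control and HMA2 (-0.49) the lowest. In Al NAS2 was at 0.67 and MTP1, a vacuolar zinc transporter, at -0.46. The list median in Al was 0.04 over 10 measured genes. For the difference of the responses it was 0.12, with NAS2 at 0.73 and MTP3 at 0.66.

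**Figure D5:**
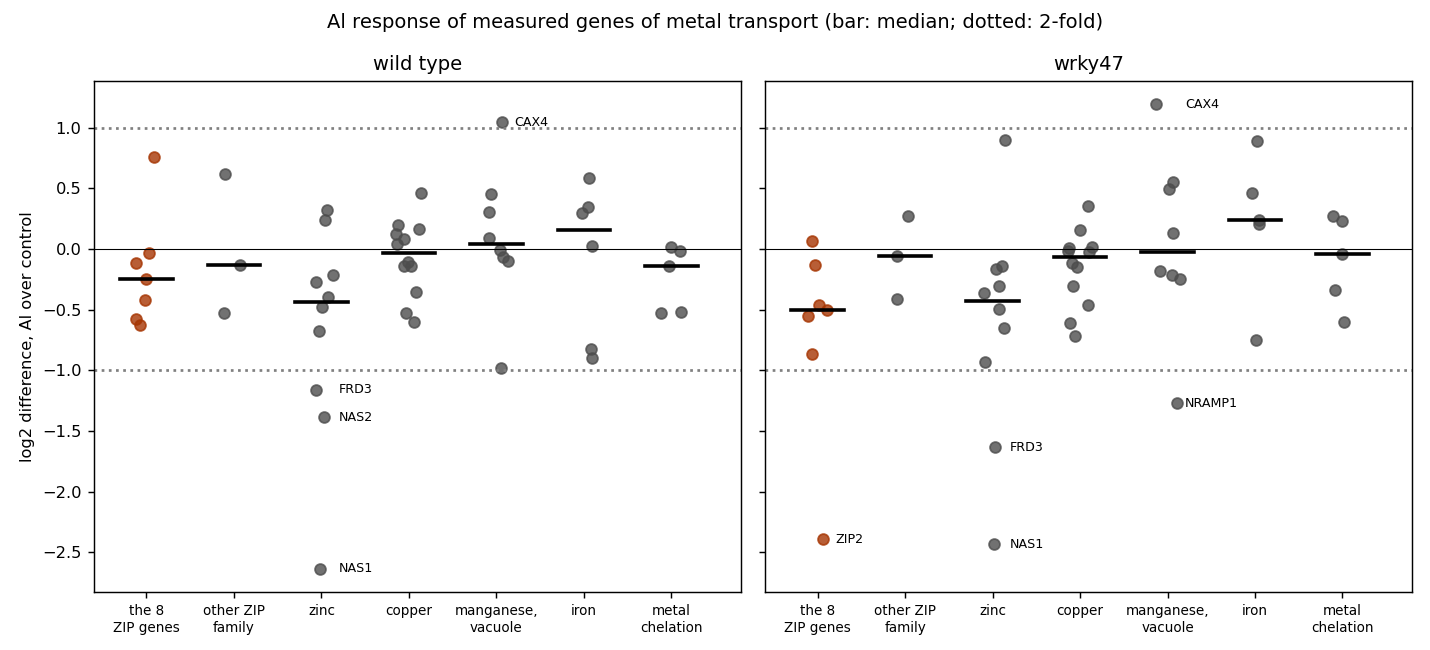
Log2 difference of Al over control for measured genes of metal transport in wild type (left) and wrky47 (right), 1 point per gene and a bar at the list median, with genes past 2-fold named and genes given only as bounds left out. ZIP2 at -2.39 is the only ZIP gene past 2-fold among those shown, and NAS1 is low in both genotypes (-2.63 and -2.43).

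ZIP2 is also named a copper transporter in the authors' table, and 14 of 17 listed genes of copper uptake and economy had a probe set of their own. COPT2, a copper importer of the root, read 63.1 on the wild-type control array, 51.1 with Al, 139 on the wrky47 control array and 45.8 with Al. It was above the floor only in wrky47 control, the array on which ZIP2 was highest, and there at least 1.71-fold higher than in wild type. FSD1, an iron superoxide dismutase that plants raise when copper is scarce, had signals of 423, 293, 846 and 514 in the order wild-type control, wild-type Al, wrky47 control and wrky47 Al. Of the 12 genes of the list measured on both control arrays, 5 were higher in wrky47 and 7 lower as deposited. After quantile normalization 8 were higher and 4 lower. In control solution 1 of 13 detected genes of the list passed 2-fold between genotypes, beside 0.328% of all genes. It was FSD1, which lay on the threshold, higher in wrky47 by 1.00 on the log2 scale in control and by 0.81 in Al, so that unlike ZIP2 it kept its side in both solutions.

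None of the 12 detected genes of the copper list passed 2-fold with Al in wild type, beside 6.04% of all genes. In wrky47 none of 13 did, beside 5.9%. COPT2 had a bound of at least 1.85-fold lower in wrky47. Among genes of the list measured on both arrays, the largest Al differences were those of the chloroplast superoxide dismutase CSD2 (-0.60 in wild type, -0.61 in wrky47) and FSD1 (-0.53 and -0.72). SPL7, the regulator of the copper response, was at 0.12 and 0.02. The list medians were -0.03 for Al in wild type, -0.07 for Al in wrky47, -0.01 for the genotypes in control and -0.09 in Al. The first and the third of these turned above 0 under all 3 other scalings.

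Manganese and vacuolar metal transport genes, 11 of 12 with a probe set of their own, had 8 measured members. CAX4, a cation exchanger of the vacuole, was higher in Al by 1.04 in wild type and 1.19 in wrky47. NRAMP1, the high-affinity manganese importer of the root, was at -0.98 and -1.27. With Al 1 of the 8 was higher by 2-fold in wild type and none lower, beside 6.04% of all genes in either direction. In wrky47 1 was higher and 1 lower, beside 5.9%. Between genotypes NRAMP1 stood at -0.20 in control and -0.49 in Al. None of the 8 passed 2-fold there, beside 0.328% of all genes in control and 0.375% in Al. The list medians were 0.04 for Al in wild type and -0.03 for Al in wrky47, beside a mean of 0.06 in the latter.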

How the data were processed

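Root RNA was hybridised to 4 arrays, 1 for each genotype and solution, grouped by the genotype and solution in the labels. The authors deposited 22810 probe sets with log2 signals, as the file headers and the range of values show; the submitters' processing notes name MAS5, without version or settings. The deposited columns headed raw hold intensity on a linear scale that equals 2 to the power of the log2 column (largest gap 1.6e-06). The second table held the same values (0 differed) and tied columns to samples.

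The 20550 probe sets that name 1 gene gave 20341 genes, each represented by its brightest probe set. Symbols came from a RefSeq gene table (TAIR10.1), which matched 20277 genes, all 8 members included. A gene was measured if above the 40th percentile of both arrays (all 4 for the difference of responses); detected on 1 array only, it got a bound, its signal divided by the other array's floor. The number of arrays limits the precision. Computation used Python 3.11.15 with pandas 2.3.3 and was tested on simulated data.

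Named were all members, for each of 6 gene lists the measured genes of largest difference (up to 4 per comparison) and the 3 genes nearest to a member's profile. Other list and marker genes (COPT2, HMA4, SPL7, OPT3, BHLH039, the root markers and the family members below the floor) were named after their values were seen. Members and lists were chosen with earlier results of these data known. Alternatives were 3 scalings, 3 floors, 2 thresholds, the mean of probe sets, an offset and the second table.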

Additional observations from a re-analysis of the deposited data

Results flagged for a closer look

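In 4 members the genotype difference had opposite signs in the 2 solutions. Each difference rests on 1 array per group, and the change of sign was not tested. The numbers 1 and 2 in the column names also change sides between the solutions. The change of sign and whatever these numbers mark therefore cannot be told apart. ZIP2 was higher in wrky47 in control (log2 0.91) and lower in Al (-0.85). ZIP5 was at 0.17 and -0.58, and ZIP4 at 0.14 and -0.33. ZIP11 had the reverse order, -0.0551 in control and 0.0578 in Al, and its control value turned above 0 with arrays centred, or scaled at their 75th percentile. As deposited, the Al response had the same sign in wild type and wrky47 for all 7 members measured in both, but ZIP4 turned above 0 in wild type under 3 other scalings and ZIP5 after quantile normalization.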

How the results depend on the processing

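With 1 array per group no array could be left out, and no spread between replicates limits any value. No paired analysis was possible because each group holds 1 array; the numbers 1 and 2 in the column names cross genotype and solution, so that no term for them can be fitted beside the difference of the responses. Of 55 counts of members past the threshold recomputed under the alternatives, 44 stayed within 1.5 times the value given and 11 did not. In wild-type Al the count of 1 became 0 with a floor at the 60th percentile and 3 at a threshold of 1.5-fold. In wrky47 Al the count of 1 became 2 without a floor, 2 with a floor at the 30th percentile and 3 at 1.5-fold, and for the difference of the responses it likewise became 2, 2 and 3. Between genotypes the count of 0 became 1 in control at 1.5-fold, and in Al 1 after quantile normalization and 3 at 1.5-fold. At 1.5-fold the share of all genes was 17.5% in wild-type Al, 16.4% in wrky47 Al, 2.93% for the genotypes in control, 2.41% for the genotypes in Al and 2.98% for the difference. The gene added by a lower floor was ZIP9 (1.08 in wrky47, -1.39 for the difference), whose control signals of 47.7 and 62.9 lie above the 30th percentile. Of the single members' values recomputed, 312 moved by less than 1.5-fold on the same side of 2-fold, and the other 7 were all of ZIP9. ZIP1, ZIP4, ZIP5 and ZIP11 were below the 60th percentile on every array and gave no value with that floor. ZIP2 stayed between -2.41 and -2.26 with Al in wrky47, between 0.89 and 0.99 for the genotypes in control and between -0.86 and -0.78 in Al.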

Other observations

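Iron acquisition genes, 11 of 14 with a probe set of their own, divided under Al. In wild type 1 of 8 detected genes was higher by 2-fold with Al and none lower, beside 6.04% of all genes in either direction. In wrky47 1 of 8 was higher and 1 lower, beside 5.9%. OPT3, a transporter of iron in the phloem, read 78.8 on the wild-type control array, 267 with Al, 74.2 on the wrky47 control array and 282 with Al, and was at least 3.29-fold higher in Al in wild type and at least 3.57-fold in wrky47. FIT, the main activator of iron uptake, had signals of 150.4, 80.8, 189.7 and 49.1 in the same order, with a log2 difference of -0.90 in wild type and a bound of at least 2.53-fold lower in wrky47. The E3 ligase BTS, which restrains the iron response, was at 0.59 and 0.89, and the proton pump AHA2 at -0.83 and -0.75. BHLH039, another gene of this list, was above the floor only on the Al arrays. With Al it was at least 1.56-fold higher in wild type and at least 1.51-fold higher in wrky47. Between genotypes none of 6 detected genes of this list passed 2-fold in control, beside 0.328% of all genes. In Al none of 8 did, beside 0.375%. The list medians were 0.16 for Al in wild type (mean -0.08, 6 measured genes) and 0.24 for Al in wrky47 (mean 0.21, 5 measured genes). FIT is in the wild-type median but, as a bound, not in that of wrky47, so the 2 medians are of different genes.

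Metal chelation genes, 5 of 6 with a probe set of their own, had no member past 2-fold in any comparison. The share of all genes past it ran from 0.188% for the difference of the responses to 6.04% for Al in wild type. The metallothionein gene MT2A was the lowest in wrky47 in control (-0.88) and in Al (-0.69), from signals of 1209 in wild-type control, 840 in wild-type Al, 656 in wrky47 control and 519 in wrky47 Al. The medians were -0.14 for Al in wild type, -0.04 for Al in wrky47 (above 0 after quantile normalization), -0.18 for the genotypes in control and -0.14 in Al.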
